A study of Mus musculus with 6 samples.

Results

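This section concerns 10 genes of the amino acid stress response and of serine synthesis in skin with active Nrf2. They are the transcription factors Atf4, Atf5 and Ddit3, the feedback proteins Trib3 and Sesn2, the glutathione-degrading enzyme Chac1, the amino acid enzymes Asns, Phgdh and Psat1, and the receptor Vldlr. Every probe set whose array annotation gives 1 of these symbols was taken, which made 25 of the 45037 probe sets tested, and all 10 genes, of 18193 with a single symbol, were measured. Total RNA came from the back skin of 6 female littermates killed on postnatal day 2.5, with 1 mouse per Affymetrix array. The caNrf2 group of 3 mice carried K5cre-caNrf2 (genotype tg/tg), in which Cre under the keratin 5 promoter switches on a constitutively active Nrf2 in basal keratinocytes and the cells derived from them. The control group of 3 mice is labelled K5cre-wt (tg/wt), so that both groups have K5cre, and all animals had a mixed FVB/N and C57BL/6 background. The caNrf2 samples carry the genotype entry tg/g in place of tg/tg, and the treatment entry names caNrf2 on the control samples too, so groups were taken from the sample titles. Whole skin holds dermis, fat, muscle and hair follicles besides the keratinocytes that express keratin 5.

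Atf4 is the transcription factor of the integrated stress response. When amino acids run short, or unfolded protein accumulates in the endoplasmic reticulum, kinases phosphorylate the initiation factor eIF2, general translation slows and the Atf4 message is translated more. Atf4 then pairs with C/EBP proteins at a composite DNA element and raises genes for amino acid synthesis and import. Nrf2 is the transcription factor that raises antioxidant and detoxification genes through the antioxidant response element. In human lung cancer cells Nrf2 is known to raise the serine synthesis enzymes PHGDH and PSAT1 through ATF4, and the cystine importer Slc7a11 is a known target of both factors. The comparison of caNrf2 with control skin shows whether the amino acid stress genes differed where the Nrf2 targets did.

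The arrays were much alike, with Pearson correlations of log2 intensity from 0.9976 to 0.9980 within caNrf2, from 0.9973 to 0.9977 within control and from 0.9949 to 0.9962 between caNrf2 and control. As a gauge of RNA integrity, the 3' over 5' signal of the Actb control probe sets ran from 0.52 to 0.54 in caNrf2 and from 0.48 to 0.50 in control arrays on the log2 scale. Nfe2l2, the gene of Nrf2, had intensities of 1136, 1222 and 1242 in caNrf2 skin, against 825, 726 and 774 in control skin, which limma called higher by 0.63 ± 0.073 on the log2 scale (SE; adjusted p = 0.00176), and whether this probe set also reads the transgene is not known here. Y-linked genes should be silent in female mice, and their 20 probe sets had means from 6.74 to 58.1 with a median of 11.7. Of these probe sets, 14 had means under 20. Values in the whole range, up to 58.1, are called near background here. Keratinocyte markers summed to 103401 to 106434 in caNrf2 and to 102150.0 to 103736 in control arrays, and 1 of 9, Krt15, was called lower. Of 5 adipocyte markers 1 was called, the hormone gene Lep, with a log2 fold change of -0.58 (limma, adjusted p = 0.00231), while the sums overlapped. Krt15 and Lep were named after their values were seen. The fibroblast sums of caNrf2 arrays (68966 to 70495) lay below those of control arrays (71072 to 73629), and the endothelium sums of caNrf2 arrays (1992 to 2022) above those of control arrays (1856 to 1913). Of 6 markers in each of these lists 0 were called in limma, and 0 fibroblast and 1 endothelium marker, higher, had an unadjusted p under 0.05. Of 8 skeletal muscle markers 0 were called in limma at an adjusted p under 0.05, and 1 was lower at an unadjusted p under 0.05. For comparison with these marker counts, 1.51% of all genes were called higher and 0.786% lower. At an unadjusted p under 0.05, 9.72% of all genes were higher and 8.28% lower.

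To give the sequence context, 5 promoter windows are shown that hold the Atf4 binding motif, 3 from members and 2 from transporter genes described further on. Each window runs from 250 bases before to 50 bases after a RefSeq start site (GRCm38.p6), written 5′ to 3′ on the strand of the gene, and the capitals mark matches to the C/EBP-ATF element TGATGNAA on either strand. Asns lies at chr6:7693160-7693459, minus strand, Chac1 at chr2:119350992-119351291, plus strand, Trib3 at chr2:152344011-152344310, minus strand, Slc7a11 at chr3:50443564-50443863, minus strand and Slc1a4 at chr11:20332664-20332963, minus strand.
Asns: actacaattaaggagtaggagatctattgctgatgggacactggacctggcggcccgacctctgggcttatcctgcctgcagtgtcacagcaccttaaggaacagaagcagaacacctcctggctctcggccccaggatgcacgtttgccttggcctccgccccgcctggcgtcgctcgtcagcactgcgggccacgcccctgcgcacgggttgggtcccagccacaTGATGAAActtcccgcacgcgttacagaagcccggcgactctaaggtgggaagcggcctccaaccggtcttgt
Chac1: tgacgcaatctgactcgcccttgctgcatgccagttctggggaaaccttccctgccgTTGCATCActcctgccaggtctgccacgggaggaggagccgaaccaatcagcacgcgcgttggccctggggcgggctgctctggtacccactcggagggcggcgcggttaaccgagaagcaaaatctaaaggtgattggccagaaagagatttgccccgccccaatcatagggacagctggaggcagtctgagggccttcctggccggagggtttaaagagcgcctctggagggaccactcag
Trib3: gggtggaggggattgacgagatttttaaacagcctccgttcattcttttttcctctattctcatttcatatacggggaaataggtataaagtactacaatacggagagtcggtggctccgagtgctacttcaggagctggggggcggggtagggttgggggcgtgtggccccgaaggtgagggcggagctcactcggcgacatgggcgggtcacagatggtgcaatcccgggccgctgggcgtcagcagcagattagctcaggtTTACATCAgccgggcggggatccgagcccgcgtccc
Slc7a11: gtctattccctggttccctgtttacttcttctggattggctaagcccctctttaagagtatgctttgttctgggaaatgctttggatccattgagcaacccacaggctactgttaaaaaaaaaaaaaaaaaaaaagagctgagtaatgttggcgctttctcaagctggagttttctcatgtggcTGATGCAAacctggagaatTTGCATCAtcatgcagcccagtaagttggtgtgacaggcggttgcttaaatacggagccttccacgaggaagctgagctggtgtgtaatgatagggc
Slc1a4: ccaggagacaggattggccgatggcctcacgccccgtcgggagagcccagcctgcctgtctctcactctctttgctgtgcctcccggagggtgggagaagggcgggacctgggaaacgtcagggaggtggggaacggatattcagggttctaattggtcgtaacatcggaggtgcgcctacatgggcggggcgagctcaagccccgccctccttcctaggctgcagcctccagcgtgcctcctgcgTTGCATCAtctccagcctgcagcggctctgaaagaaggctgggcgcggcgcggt
The element was found in 4 of the 13 member windows, those of Asns, Chac1, Trib3 and the second window of Vldlr, and in 3.97% of all 32851 promoter windows. In Asns the match began 23 bases before the start site, in Chac1 193 bases before it, and in Trib3 it lay 15 bases into the transcript. The Slc7a11 window held a pair of matches in opposite orientation, beginning 66 and 47 bases before the start site. The antioxidant response element, searched as TGACNNNGC on both strands, was found in the windows of Asns, Sesn2 and Phgdh, 3 of 13, and in 12.4% of all windows. It overlapped the C/EBP-ATF element in none of these windows. A match is a description of letters and not a measured binding site. Sequence outside the windows was not searched, so a window without a match does not show that the gene lacks the element.

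None of the 10 amino acid stress genes was called by its brightest probe set, and 1 of their 25 probe sets, of Ddit3, was called lower in caNrf2 skin. Taking the brightest probe set for each gene, 0 of 10 genes were called higher and 0 lower (limma, Benjamini-Hochberg over all 45037 probe sets, adjusted p under 0.05), where 1.51% of all 18193 genes were called higher and 0.786% lower. With such shares, 0 calls among 10 genes does not set the members apart from all genes. At an unadjusted p under 0.05, Trib3 was higher and Chac1 lower, 1 of 10 in each direction, where 9.72% of all genes were higher and 8.28% lower. Their log2 fold changes, caNrf2 minus control, ran from -0.35 (Chac1) to 0.31 (Trib3) with a median of -0.016, beside a median of -0.0041 over all genes. The 95% intervals of these 10 brightest probe sets lay between a fold of 0.696 and a fold of 1.41, and those of all 25 probe sets between 0.633 (Ddit3 1443897_at) and 1.41. Of the 25 probe sets, 0 were called higher and 1 lower, against 1.04% and 0.633% of all probe sets, and 4 were higher and 3 lower at an unadjusted p under 0.05, against 8.90% and 8.53%. In 6 of the 25 every caNrf2 array read above every control array and in 4 every caNrf2 array read below, where this held for 11.4% and 11.7% of all probe sets. The 6 above were probe sets of Trib3, Phgdh and Psat1 only, and probe sets of the same gene are not independent readings. In bulk tissue, fewer cells of a type and less RNA per cell cannot be told apart.

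**Figure D1:**
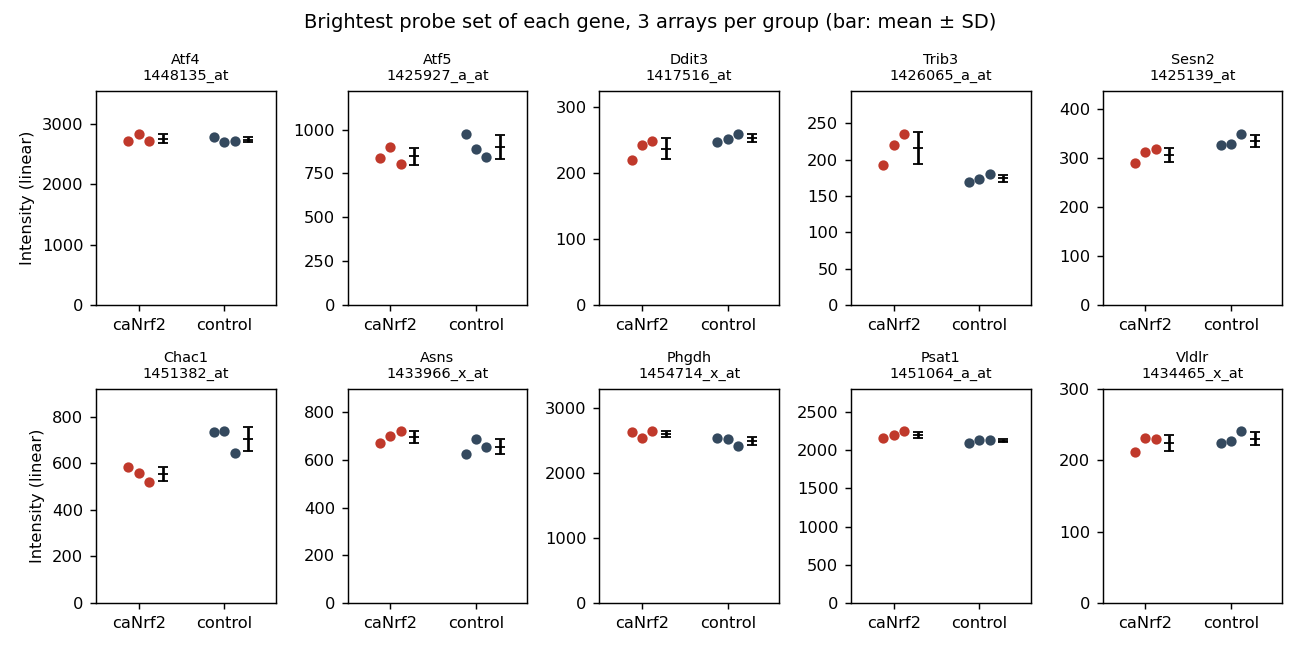
Intensity (linear scale, axes from 0) of the brightest probe set of each of the 10 genes, with the 3 caNrf2 arrays in red on the left, the 3 control arrays in dark blue on the right, and the mean ± SD as a bar beside each group. The groups lie at nearly the same height in most panels, with Trib3 higher and Chac1 lower in each of the 3 caNrf2 arrays.

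Atf4 itself, the factor at the head of the response, was bright and was not called in any probe set. Its brightest probe set, 1448135_at, read 2709, 2836 and 2719.6 in caNrf2 skin, against 2788, 2706 and 2724 in control skin. The groups overlapped, and the log2 fold change was 0.0081 ± 0.062 (SE; 95% interval -0.13 to 0.15; adjusted p = 0.96). A further probe set, 1438992_x_at, read 849, 1075 and 847 in caNrf2 skin, against 736, 825 and 848 in control skin, with caNrf2 replicate 2 above the other arrays and a log2 fold change of 0.20 ± 0.10 (SE; 95% interval -0.03 to 0.43; adjusted p = 0.355). The suffix x_at marks probe sets whose probes may also bind other transcripts. The dim probe set 1439258_at lay near background on every array, at 30.2, 31.3 and 29.0 in caNrf2 skin, against 29.9, 28.7 and 32.6 in control skin. Atf4 protein is controlled mainly through translation, which an array of mRNA does not read.

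Atf5, a related factor that is translated under the same conditions, had 1 probe set. It read 837, 902 and 804 in caNrf2 skin, against 976, 891 and 842 in control skin, and the groups overlapped. Its log2 fold change was -0.091 ± 0.078 (SE; 95% interval -0.27 to 0.084; adjusted p = 0.577).

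Ddit3, which codes for CHOP, a factor that Atf4 raises under lasting stress, had 1 probe set that was called and 1 that was not. The brightest, 1417516_at, read 219.7, 243 and 249 in caNrf2 skin, against 247, 252 and 259.7 in control skin. Only caNrf2 replicate 1 lay well below the rest there, and the log2 fold change was -0.094 ± 0.070 (SE; 95% interval -0.25 to 0.064; adjusted p = 0.518). The dimmer 1443897_at read 101, 83.6 and 102 in caNrf2 skin, against 126, 129.5 and 138 in control skin. All 3 caNrf2 arrays were below all 3 control arrays, at 95.6 ± 10.4 in caNrf2 and 131 ± 6.29 in control skin (mean ± SD, n = 3), and the log2 fold change of -0.46 ± 0.088 (SE; 95% interval -0.66 to -0.26; adjusted p = 0.0344) made it the 1 called probe set of the 25, as lower. This call was lost with any of the 6 arrays left out, at adjusted p from 0.0594 to 0.112, and with the replicate number as a block, at 0.0515. The fold changes of the pair differed by -0.37, with p = 0.1 in an exact permutation test (two-sided), which cannot go lower with 3 arrays a side (adjusted p = 0.375 over 15 pairs of probe sets of 1 gene). Which part of the transcript either probe set reads is not given in the sources used here, so the call for Ddit3 rests on its dimmer probe set.

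**Figure D2:**
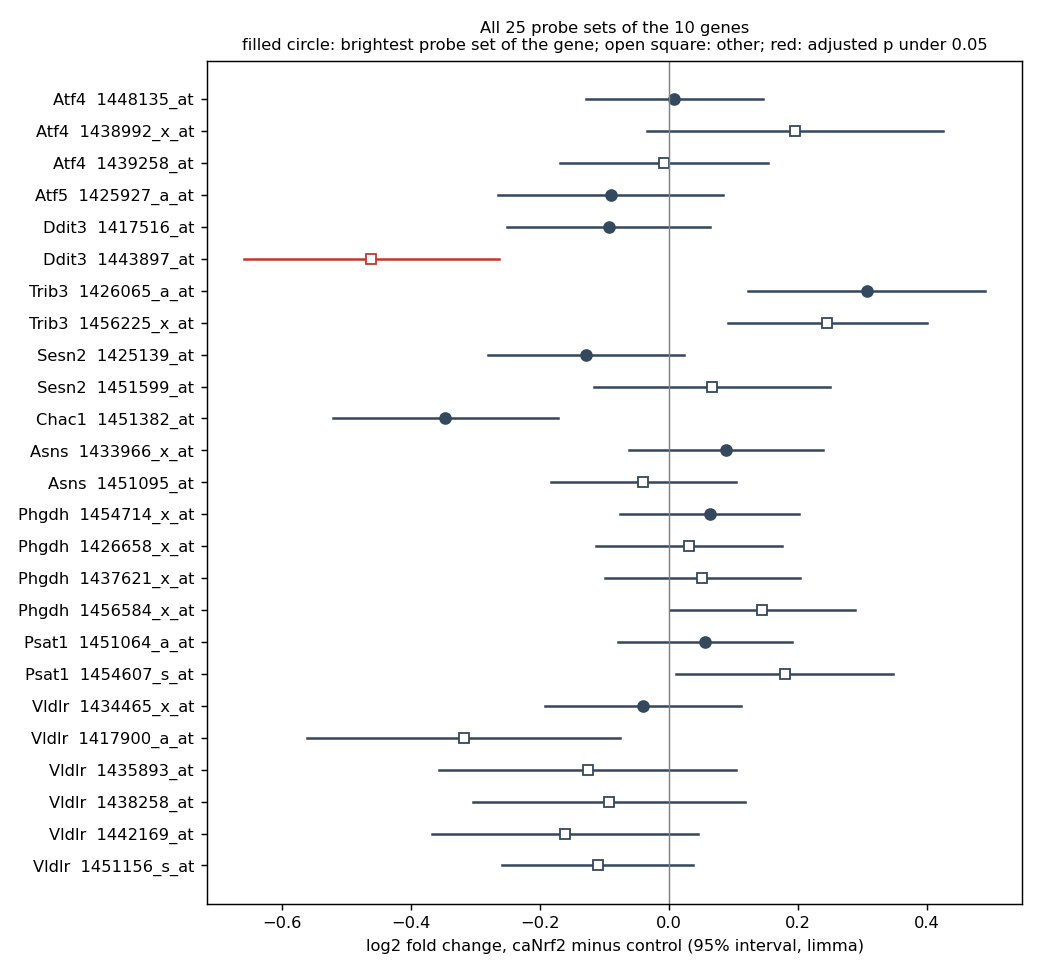
Log2 fold change (caNrf2 minus control, horizontal axis) with its 95% interval from limma for all 25 probe sets, grouped by gene; filled circles are the brightest probe set of a gene, open squares the others, and red marks an adjusted p under 0.05. The Ddit3 probe set 1443897_at at -0.46 is the 1 red symbol, both Trib3 probe sets lie right of 0, and the Chac1 probe set lies left of it.

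Trib3, a pseudokinase that Atf4 and CHOP raise and that holds both in check, was the member with the highest estimate. Its brightest probe set, 1426065_a_at, read 193, 220.3 and 236 in caNrf2 skin, against 169.5, 173 and 180.0 in control skin. The other, 1456225_x_at, read 206, 217 and 208 in caNrf2 skin, against 179, 187 and 166 in control skin. Every caNrf2 array lay above every control array in both probe sets. The log2 fold changes were 0.31 ± 0.082 (SE; 95% interval 0.12 to 0.49; adjusted p = 0.109) and 0.25 ± 0.069 (SE; 95% interval 0.091 to 0.40; adjusted p = 0.123), so that neither passed the test, and neither passed under any alternative setting tried, at adjusted p from 0.0572 to 0.305 for the brightest. The Trib3 promoter window shown above holds a C/EBP-ATF match.

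Sesn2, a leucine-binding inhibitor of the growth kinase complex mTORC1, had probe sets that differed in sign. Its brightest, 1425139_at, read 290.0, 312 and 318 in caNrf2 skin, against 327, 329 and 349.8 in control skin. The caNrf2 arrays were all a little lower, with a log2 fold change of -0.13 ± 0.068 (SE; 95% interval -0.28 to 0.02; adjusted p = 0.356). The dimmer 1451599_at read 133, 150.3 and 133 in caNrf2 skin, against 139, 121 and 138 in control skin, with overlapping groups and a log2 fold change of 0.067 ± 0.082 (SE; 95% interval -0.12 to 0.25; adjusted p = 0.706). The difference between the probe sets had an exact two-sided permutation p = 0.2.

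Chac1, which cleaves glutathione and is among the strongest Atf4 and CHOP targets in cells under stress, read 582, 558 and 520.5 in caNrf2 skin, against 733, 737 and 645 in control skin. All caNrf2 arrays were below all control arrays, and the means were 554 ± 31.1 in caNrf2 and 705 ± 52.1 in control skin (SD, n = 3). The log2 fold change of -0.35 ± 0.078 (SE; 95% interval -0.52 to -0.17; adjusted p = 0.0637), a fold of 0.786, missed the threshold in the fit over all probe sets. With 1 probe set per gene, which lowers the number of tests to 18193 and calls 1.39% of genes lower, the same difference had an adjusted p = 0.0345 and was called. It was also called with dim probe sets removed, with array weights, with an intensity trend and robust variances, and with log2(value + 16), at adjusted p from 0.0118 to 0.0434. In the fit over all probe sets it was not called with any 1 of the 6 arrays left out, at adjusted p from 0.058 to 0.224. Hair follicle markers had lower levels in caNrf2 skin too, without passing the test. Their summed intensity ran from 48693 to 49988 in caNrf2 and from 54935 to 58180.5 in control arrays, with 0 of 10 called, 8 of 10 lower at an unadjusted p under 0.05 and a median of -0.23, where 8.28% of all genes were lower at that threshold. Melanocyte markers summed to 9254 to 10172 in caNrf2 and to 10777 to 11484 in control arrays, with 0 of 5 called and 5 lower at an unadjusted p under 0.05, against the same 8.28% of all genes. The part of these cell types in the lower Chac1 and Ddit3 values was not tested.

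Asns, which makes asparagine and is a standard reporter of amino acid shortage, was not called in either probe set. Its brightest, 1433966_x_at, read 671, 701 and 719.9 in caNrf2 skin, against 627, 689 and 653 in control skin, and 1451095_at read 619, 667 and 655 in caNrf2 skin, against 663, 679 and 653 in control skin. The groups overlapped in both. The log2 fold changes had opposite signs, at 0.088 ± 0.067 (SE; 95% interval -0.06 to 0.24; adjusted p = 0.525) and -0.040 ± 0.064 (SE; 95% interval -0.18 to 0.10; adjusted p = 0.78). The Asns window shown above holds a C/EBP-ATF match.

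Phgdh, the enzyme of the first step of serine synthesis from a glycolytic intermediate, had 4 probe sets, all with the suffix x_at. The brightest, 1454714_x_at, read 2619, 2538 and 2633 in caNrf2 skin, against 2533, 2512 and 2414 in control skin. The caNrf2 arrays were above the control arrays by a margin smaller than the spread within a group, and the log2 fold change was 0.063 ± 0.062 (SE; 95% interval -0.08 to 0.20; adjusted p = 0.631). The largest estimate came from 1456584_x_at, which read 970.4, 1039 and 1014 in caNrf2 skin, against 883, 938 and 913 in control skin, without overlap and with a log2 fold change of 0.14 ± 0.064 (SE; 95% interval 0.0010 to 0.29; adjusted p = 0.284). The remaining pair gave 0.031 ± 0.064 and 0.052 ± 0.067 (SE) with overlapping groups. All 4 estimates were positive and none passed the test.

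Psat1, the aminotransferase of the next step of serine synthesis, showed the same small positive estimates. Its brightest probe set, 1451064_a_at, read 2164, 2203 and 2244 in caNrf2 skin, against 2099, 2131 and 2131 in control skin. The groups did not overlap, and the log2 fold change was 0.055 ± 0.060 (SE; 95% interval -0.08 to 0.19; adjusted p = 0.668). The second, 1454607_s_at, read 1315, 1504 and 1385 in caNrf2 skin, against 1163, 1259 and 1287 in control skin, also without overlap, with a log2 fold change of 0.18 ± 0.075 (SE; 95% interval 0.011 to 0.35; adjusted p = 0.26). As folds of caNrf2 over control, the upper 95% bounds of the brightest probe sets were 1.1498 for Phgdh and 1.14 for Psat1. The highest upper bounds of their other probe sets were 1.22 for Phgdh 1456584_x_at and 1.27 for Psat1 1454607_s_at.

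Vldlr, a lipoprotein receptor of the LDL receptor family, had 6 probe sets, all with negative estimates and none called. The brightest, 1434465_x_at, read 211, 231 and 229.9 in caNrf2 skin, against 224, 227 and 240.2 in control skin, with overlapping groups and a log2 fold change of -0.041 ± 0.068 (SE; 95% interval -0.19 to 0.11; adjusted p = 0.793). The lowest estimate came from 1417900_a_at, which read 85.7, 86.0 and 72.9 in caNrf2 skin, against 119, 92.0 and 95.2 in control skin. Its caNrf2 arrays were all below its control arrays, and control replicate 1 stood above the rest, with a log2 fold change of -0.32 ± 0.11 (SE; 95% interval -0.56 to -0.08; adjusted p = 0.182). The other 4 ranged from -0.16 to -0.093, with overlapping groups, and 3 of them, 1438258_at, 1442169_at and 1451156_s_at, had means near background.

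Of the 33 measured genes of the wider set of Atf4 targets, 4 rose, none fell and 29 missed the threshold, where 1.51% of all genes were called higher and 0.786% lower. The median log2 fold change was -0.016. At an unadjusted p under 0.05, 6 were higher and 3 lower, where 9.72% of all genes were higher and 8.28% lower. The 4 that rose were Slc7a11, Slc6a9, Slc1a4 and Eif4ebp1. The first of these is also on the list of core Nrf2 targets, and 3 of the 4 import amino acids.

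Slc7a11, the importer of cystine for glutathione synthesis, had intensities of 311, 287 and 388 in caNrf2 skin, against 30.1, 27.7 and 34.4 in control skin. The lowest caNrf2 array was far above the highest control array. All control values were near background, where differences are compressed. On the log2 scale the rise was 3.41 ± 0.12 in this probe set and 3.10 ± 0.14 in the other (SE; limma, adjusted p = 2.53e-07 and 1.65e-06). Its promoter window, shown above, has the pair of C/EBP-ATF matches and no match to the antioxidant response element. Sequence outside that window was not searched, and which factor raised Slc7a11 was not tested.

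Slc6a9, a glycine importer, read 721, 757 and 751 in caNrf2 skin, against 328, 343 and 329.6 in control skin. The caNrf2 and control arrays formed tight and separate groups, 1.16 ± 0.062 apart on the log2 scale (SE; limma, adjusted p = 6.16e-06). Its second probe set gave 0.50 ± 0.079 (adjusted p = 0.0131). Of its 3 promoter windows 0 held the C/EBP-ATF element and 2 held the antioxidant response element.

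Slc1a4, an importer of alanine, serine and cysteine, read 419, 455 and 375 in caNrf2 skin, against 243, 263 and 267 in control skin. All 3 of its probe sets were called higher, at 0.69 ± 0.083, 1.06 ± 0.083 and 0.95 ± 0.089 on the log2 scale (SE; limma, adjusted p = 0.00231, 0.000105 and 0.000389). The window shown above holds a C/EBP-ATF match beginning 4 bases before the start site.

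Eif4ebp1, the translation inhibitor 4E-BP1, read 1578, 1849.8 and 1558 in caNrf2 skin, against 1221, 1262 and 1202 in control skin, which was 0.43 ± 0.080 higher on the log2 scale (SE; limma, adjusted p = 0.0288). Leaving out any 1 of the 6 arrays ended this call, with adjusted p between 0.056 and 0.111, and its other probe sets gave 0.35 ± 0.074 (adjusted p = 0.0523) and 0.15 ± 0.066 (adjusted p = 0.289).

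**Figure D3:**
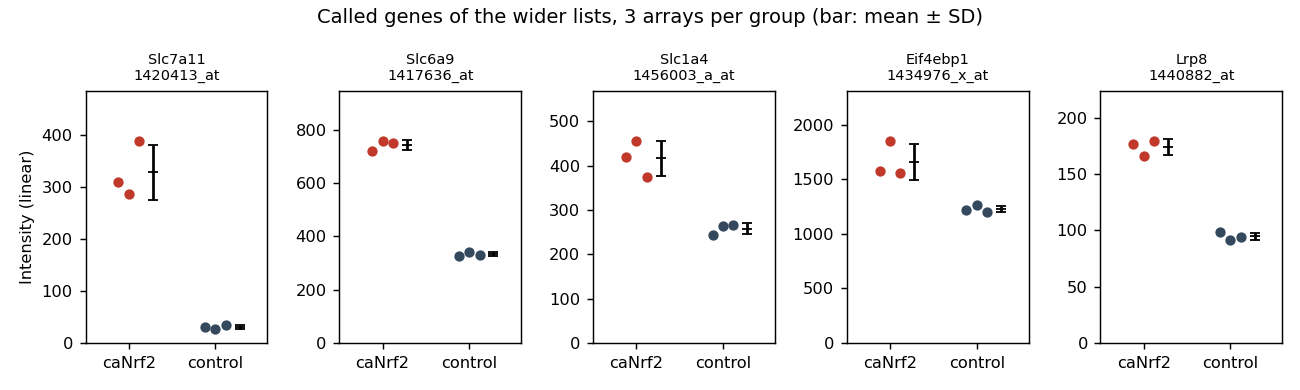
Intensity (linear scale, axes from 0) of the brightest probe set of Slc7a11, Slc6a9, Slc1a4, Eif4ebp1 and Lrp8, with the 3 caNrf2 arrays in red on the left, the 3 control arrays in dark blue on the right and the mean ± SD as a bar. In each panel all caNrf2 arrays lie above all control arrays, with Slc7a11 at a mean of 329 against 30.7.

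Among 22 amino acid transporters, the 3 importers above rose, 0 fell and 19 did not pass, with a median of 0.011, where 1.51% of all genes were called higher. Slc7a1, which imports arginine and lysine, was lower in all caNrf2 arrays at 2035, 1834 and 1776 in caNrf2 skin, against 2462, 2271 and 2194 in control skin. Its log2 fold change of -0.30 ± 0.077 (SE; 95% interval -0.47 to -0.12; adjusted p = 0.102) did not pass, but was called with an intensity trend and robust variances (adjusted p = 0.0186).

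Serine, glycine and one-carbon enzymes beyond Phgdh and Psat1 were not called, with 0 of 17 measured genes called in limma. Only 1.51% of all genes were called higher and 0.786% lower, so 0 calls does not set so short a list apart. At an unadjusted p under 0.05, 2 were higher and 3 lower, where 9.72% of all genes were higher and 8.28% lower. The median was -0.062. Psph, the phosphatase of the last step of serine synthesis, gave 0.18 ± 0.080 (adjusted p = 0.278), and the mitochondrial folate enzyme Mthfd2 gave -0.15 ± 0.065 (adjusted p = 0.28). Cbs, which joins serine and homocysteine, gave -0.24 ± 0.071 (adjusted p = 0.145), and Gldc of the glycine cleavage system 0.22 ± 0.085 (adjusted p = 0.228). The Gldc control mean of 53.8 is near background. The other Cbs probe set gave -0.050. Of 19 cytosolic aminoacyl-tRNA synthetases, which load tRNAs and include many Atf4 targets, 0 were called, beside the same shares of all genes. In this list 1 was higher and 1 lower at an unadjusted p under 0.05, and the median was -0.023. The smallest p was that of Hars, the histidine enzyme, at -0.20 ± 0.079 (adjusted p = 0.244), and its other probe set gave 0.13. Farsb, Qars and Iars gave 0.18, 0.14 and -0.13, with adjusted p of 0.264, 0.341 and 0.388. Their other probe sets ran from -0.029 to 0.062 for Farsb and from -0.25 to 0.13 for Qars, with -0.15 for Iars, and none was called. The -0.029 of Farsb and the -0.25 of Qars came from probe sets near background.

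Genes upstream of Atf4 and those of neighbouring stress pathways were not called either. Of all genes, 1.51% were called higher and 0.786% lower, and 9.72% and 8.28% had an unadjusted p under 0.05 in those directions. With such shares, 0 calls in lists of this size does not set them apart from all genes. For the eIF2 kinases, the phosphatase regulators and eIF2B, 0 of 15 were called in limma, 0 were higher and 1 was lower at an unadjusted p under 0.05, and the median was -0.080. The lowest p here belonged to Eif2s3x, a subunit of eIF2, at -0.15 ± 0.066 (adjusted p = 0.277), followed by Eif2b3, Ppp1r15b and Eif2b4 at -0.14, -0.13 and -0.10. For chaperones and factors of the Xbp1 and Atf6 arms of the unfolded protein response, 0 of 21 were called, 2 were higher and 0 lower at an unadjusted p under 0.05, and the median was -0.042. Derl3, which works in the removal of misfolded protein, came nearest at 0.30 ± 0.070 (adjusted p = 0.0725), and passed in 4 alternative settings, at adjusted p from 0.0366 to 0.0451 in 3 of them and 0.046 with a further quantile normalization. Dnajb9, Syvn1 and Atf6 gave 0.16, 0.16 and -0.19, with adjusted p of 0.25, 0.302 and 0.349. The other Syvn1 probe set gave 0.032, and those of Atf6 gave -0.073 and -0.13. For p53 targets, listed because Sesn2 is also one, 0 of 18 were called, 0 were higher and 2 were lower at an unadjusted p under 0.05, and the median was -0.020. Btg2, Polk, Cdkn1a and Bbc3 gave -0.23, -0.18, -0.15 and -0.13, and Btg2 was called with an intensity trend and robust variances (adjusted p = 0.0497). Those were the brightest probe sets, and the others of Btg2, Polk and Cdkn1a gave -0.093, -0.016 and -0.27, none called.

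**Figure D4:**
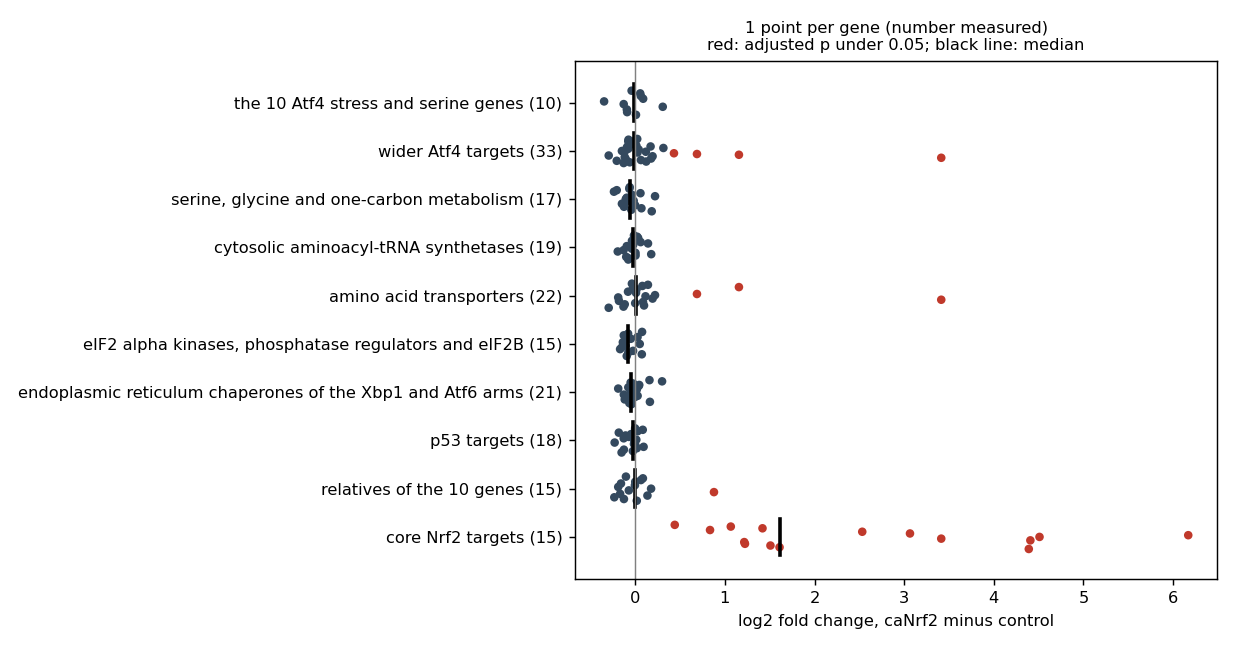
Log2 fold change (caNrf2 minus control, horizontal axis) of each measured gene, 1 point per gene by its brightest probe set, for the 10 genes and 9 gene lists, with the number measured in parentheses, calls at an adjusted p under 0.05 in red and the median as a black line. The medians of all lists but the core Nrf2 targets lie between -0.080 and 0.011, and that of the core Nrf2 targets at 1.61.

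The same arrays showed a strong Nrf2 response. All 15 measured core Nrf2 targets were called higher, where 1.51% of all genes were. Their log2 fold changes ran from 0.44 to 6.17 with a median of 1.61. This list was chosen with earlier results of these data known, so its count of calls is a description and not an independent test. Gpx2, a glutathione peroxidase, read 2354, 2458 and 2585 in caNrf2 skin, against 108, 123 and 95.1 in control skin, and the quinone reductase Nqo1 read 1315, 1432 and 1512 in caNrf2 skin, against 72.6, 66.2 and 64.3 in control skin. Srxn1, which repairs peroxiredoxins, gave a log2 fold change of 4.41 ± 0.082, and the glutathione transferase Gsta3 6.17 ± 0.14 (SE), whose control mean of 15.8 is near background. Those were the brightest probe sets. The others of Srxn1 gave 0.84, 3.92 and 4.33, and the other of Gsta3 gave 2.62, all called higher. By brightest probe sets, the lowest estimate of the 15 core Nrf2 targets was 0.44. Of the 10 amino acid stress genes, only Trib3 had a 95% interval that reached it, with an upper bound of 0.49.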

How the data were processed

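The authors deposited 1 intensity per probe set and array, on a linear scale, for 6 arrays. RMA was used, per the submitters' processing notes; it subtracts background, brings the arrays to a common distribution by quantile normalization and combines the probes of a set. No source used here states its version or a later scaling. Quantile normalization hides a shift of most transcripts in 1 direction, and the number of arrays limits the precision. Labelling started from 2 ug of total RNA, per the labels' protocols.

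Here the intensities were log2-transformed without a filter. The model had a single group term and ran in limma 3.58.1 under R 4.3.3 (lmFit, then eBayes) across the 45037 probe sets left after 64 control probe sets. Two-sided p-values were adjusted by Benjamini-Hochberg over all of them, with calls made at an adjusted p under 0.05. Fold changes carry the SE of the fit, and levels are mean ± SD over animals. The fit was tested on simulated data. How many changes as small as the member estimates it recovered is not given here. The simulation therefore does not bear on the members left uncalled. Of the probe sets, 34945 had 1 symbol in the array annotation, 932 had several and 9160 had none. Current symbols came from a RefSeq table of GRCm38.p6, matched on the Entrez identifier for 34741 of them. Counts over genes use the brightest probe set of each gene by its mean over the 6 arrays. Promoter sequences are from RefSeq, GRCm38.p6, and all 10 members matched.

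The members, gene lists and alternatives were chosen with earlier results of these data known. The genes named are the members, up to 4 genes with the smallest p of each of 9 lists, Nfe2l2, and the 3 genes most like a called member probe set. Genes of a list that are not counted as measured are not analysed here. Same-numbered arrays of the groups correlated in their deviations from the group means at 0.041, 0.16 and 0.083, and differently numbered arrays at -0.14 to 0.069. These correlations were weak and do not settle whether the arrays were paired, and the main fit did not take the numbers as pairs.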

Additional observations from a re-analysis of the deposited data

How the results depend on the processing

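Each count was recomputed under up to 14 alternatives. With 1 array left out in turn, the probe sets called higher numbered 280 to 354 and those called lower 79 to 270, against 470 and 285 with all arrays. The members called stayed at 0 in both directions over those 6 fits, and the member probe sets called lower went to 0 in each. The wider Atf4 list fell from 4 to 3 called higher in each, with 0 lower. The smallest numbers of lower calls came without control replicate 1 (79), caNrf2 replicate 3 (86), caNrf2 replicate 2 (110), caNrf2 replicate 1 (132) and control replicate 3 (147), and of higher calls without caNrf2 replicate 3 (280), control replicate 1 (296) and control replicate 3 (305). With array weights, dim probe sets removed (mean under 50), an intensity trend and robust variances, or log2(value + 16), 1 member gene (Chac1) and 2 member probe sets (Chac1 and Ddit3) were called lower. The gene-level fit called the same 1 member, Chac1. The probe sets called lower numbered 453 with dim probe sets removed, 610 with an intensity trend and robust variances and 428 with log2(value + 16). The intensity trend also called 1 gene of the wider Atf4 list lower, Slc7a1. With the replicate number as a block, 0 member probe sets and 177 probe sets in all were called lower. Whether same-numbered arrays shared more than their number is not known here, so the block is given beside the main fit. Members called higher stayed at 0 under all 14 alternatives. Among the member probe sets and named genes recomputed here, no call reversed its sign; signs of the other called probe sets were not compared. The cause of these shifts was not tested. Dim probe sets of Vldlr and Atf4 lie near background, where RMA compresses differences.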

Other observations

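Among 15 measured relatives of the 10 genes in sequence or function, 1 rose, 0 fell and 14 did not pass, with a median log2 fold change of -0.0035, where 1.51% of all genes were called higher and 0.786% lower. The gene that rose was Lrp8, a lipoprotein and reelin receptor of the same family as Vldlr. It read 177, 166 and 179 in caNrf2 skin, against 98.2, 91.6 and 94.3 in control skin in its brightest probe set. Its caNrf2 arrays lay well above its control arrays, and the log2 fold change was 0.88 ± 0.066 (SE; limma, adjusted p = 7.62e-05). A second probe set, 1442347_at, was called at 0.64 ± 0.073 (adjusted p = 0.00154), and the dim 1421459_a_at was not, at 0.31 ± 0.10 (adjusted p = 0.165). In 1442347_at the control values and those of caNrf2 replicates 1 and 2 (55.7 and 55.9) were near background. Of its 3 promoter windows, 1 held a match to the antioxidant response element, beginning 35 bases before the start site, and 0 held the C/EBP-ATF element. The difference between the fold changes of Lrp8 and Vldlr was not tested.

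By their brightest probe sets, the relatives of Trib3 had estimates of opposite sign. Trib1 gave -0.23 ± 0.069 (adjusted p = 0.137) and Trib2 0.14 ± 0.060 (adjusted p = 0.284), and neither passed. The other Trib1 probe set, near background, gave 0.061, and those of Trib2 gave 0.14 and 0.011, none called. Chac2, the relative of Chac1, gave -0.17 ± 0.080 (adjusted p = 0.31). Over the 6 arrays, the genes whose log2 intensity followed the called Ddit3 probe set 1443897_at most closely, of 13080 with a mean of at least 50, were Macrod2, Arhgap29 and Ppp1r3b, with Pearson r of 0.9952, 0.9905 and 0.9902. The points share the group difference, and none of the 3 was called (adjusted p = 0.0753, 0.2 and 0.0737).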
